A study of Mus musculus with 69 samples.

Results

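The chemokine and NF-kB genes described here are 10 genes named by symbol: the chemokines Cxcl1, Cxcl2, Cxcl5, Cxcl16 and Ccl20, the cytokines Il1a, Il33 and Tnf, and the feedback inhibitors Nfkbia and Tnfaip3. They were found by gene name in each of 3 count tables, and all 10 were present in every table, out of 20717 gene names in the series. The libraries are polyA RNA sequencing of mouse prostate organoids, which are clusters of prostate epithelial cells grown in culture, with n = 3 libraries in each of 23 groups. In the first table, PRAD organoids received COMBO to day 42, COMBO to day 8, or for 8 days YAPi_NOTCHi, ARi_YAPi, ARi_NOTCHi, NOTCHi, YAPi, ARi or the solvent DMSO as control, and organoids named NEPC-1, NEPC-2 and NEPC-3 were sequenced beside them. In the second, TKOM organoids were kept in suspension to day 30 or in Matrigel, a basement membrane gel. In the third, TKO, PtP and WT organoids each received COMBO, YAPi_NOTCHi or DMSO to day 8. The labels name agents and organoids only by these codes: they give no altered genes, no compound names, no contents of COMBO, no day for Matrigel or the NEPC organoids, no number of clones, and no statement of whether replicates were separate cultures.

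NF-kB is a family of transcription factor dimers that wait in the cytoplasm, held by inhibitor proteins, until signals from receptors for bacterial products, interleukin 1 or TNF destroy the inhibitor and let the dimers enter the nucleus. Among the genes that NF-kB switches on are chemokines that call in neutrophils and lymphocytes, and its own inhibitors, so that the response limits itself. Epithelial cells use this system to report damage or infection to the immune system, and a prostate epithelium that makes these ligands can draw in myeloid cells.

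Library totals were 22799838 to 77790816 counts in the PRAD and NEPC table, 31460616 to 40458465 in the TKOM table and 18629462 to 92280307 in the genotype table. Levels are given as CPM, counts scaled by library size and by TMM factors within a table, and values from different tables are not set against each other. Changes are log2 fold changes ± SE from edgeR's quasi-likelihood fit, and a gene was called where its p, adjusted by Benjamini-Hochberg over all genes of its table, was under 0.05. The spread behind each p is that between libraries within groups, estimated over all groups of a table together, and it may be technical. Epithelial markers were present in every group, though Krt5 had 0 counts in NEPC-2 and Krt14 had 0 counts in NEPC-3. The epithelial sum was 2124 to 2269 CPM in NEPC-3 and 11359 to 11964 CPM in PRAD DMSO libraries. Of 10 immune markers, 5 had values in the PRAD and NEPC table and their sum there did not pass 37.4 CPM; it was carried by the lysosomal gene Cd68, at 22.7 CPM in DMSO, where the macrophage receptor gene Csf1r had 0 counts. In bulk samples such as these, fewer cells of a type and less RNA per cell cannot be told apart.

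In PRAD organoids with DMSO, the 10 genes spanned a wide range of levels. Per kilobase of exon, over the union of all GENCODE M21 exons, the alarmin Il33 was highest at 188 ± 6.98 CPM per kb, followed by Nfkbia at 111 ± 4.43 CPM per kb (SD, n = 3). Cxcl5 came next at 74.9 ± 1.08 CPM per kb, and the other chemokine genes of the same cluster were lower, with Cxcl2 at 11.4 ± 0.681 CPM per kb and Cxcl1 at 5.17 ± 0.528 CPM per kb. These 3 genes encode neutrophil chemokines that share the receptor Cxcr2, and they lie close together on chromosome 5 of GRCm38: Cxcl5 from 90759298 to 90761625, Cxcl1 from 90891245 to 90893121 and Cxcl2 from 90903899 to 90905938. Cxcl16, a membrane-bound chemokine that binds Cxcr6 on lymphocytes, was at 45.3 ± 0.241 CPM per kb. For Cxcl1 and Cxcl2 the exon union takes in transcripts with retained introns (1875 of 1877 bases of the Cxcl1 gene), so their levels per kb are low estimates. The remaining 4 genes, Tnf, Ccl20, Tnfaip3 and Il1a, lay between 7.32 and 19.1 CPM per kb.

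Because these genes are described as NF-kB targets, promoter windows with a letter match to the NF-kB binding site are shown for 4 of them, the neutrophil chemokine genes Cxcl1 and Cxcl2 and the feedback inhibitor genes Nfkbia and Tnfaip3. Windows run 5′ to 3′ from 250 bases before to 50 bases after the annotated start, from RefSeq's mouse annotation on GRCm38.p6, and capitals mark matches to the kappa-B consensus, searched on both strands.
Cxcl1 (chr5:90890995-90891294, plus strand): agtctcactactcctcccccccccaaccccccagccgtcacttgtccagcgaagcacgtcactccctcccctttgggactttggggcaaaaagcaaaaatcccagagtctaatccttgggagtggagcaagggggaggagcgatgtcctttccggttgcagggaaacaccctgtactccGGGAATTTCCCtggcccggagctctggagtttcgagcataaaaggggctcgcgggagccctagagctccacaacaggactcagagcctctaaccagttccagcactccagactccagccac
Cxcl2 (chr5:90903649-90903948, plus strand): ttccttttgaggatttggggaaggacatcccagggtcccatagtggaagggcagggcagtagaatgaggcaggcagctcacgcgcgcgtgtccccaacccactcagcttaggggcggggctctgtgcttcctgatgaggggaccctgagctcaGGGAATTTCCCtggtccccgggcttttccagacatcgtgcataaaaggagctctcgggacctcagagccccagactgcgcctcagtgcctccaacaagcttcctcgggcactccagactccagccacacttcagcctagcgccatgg
Nfkbia (chr12:55492598-55492897, minus strand): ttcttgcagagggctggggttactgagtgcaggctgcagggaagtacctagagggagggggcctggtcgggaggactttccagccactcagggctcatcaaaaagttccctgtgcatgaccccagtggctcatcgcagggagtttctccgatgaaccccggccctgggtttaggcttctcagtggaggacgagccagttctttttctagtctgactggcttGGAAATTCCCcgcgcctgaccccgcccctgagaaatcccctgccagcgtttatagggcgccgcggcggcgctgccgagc
Tnfaip3 (chr10:19015361-19015660, minus strand): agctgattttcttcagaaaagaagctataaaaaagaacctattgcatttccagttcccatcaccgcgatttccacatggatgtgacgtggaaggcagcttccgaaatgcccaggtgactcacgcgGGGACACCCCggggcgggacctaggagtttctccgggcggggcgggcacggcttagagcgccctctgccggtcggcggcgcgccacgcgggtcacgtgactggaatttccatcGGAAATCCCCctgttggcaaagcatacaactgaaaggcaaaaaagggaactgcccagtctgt
Cxcl1 and Cxcl2 carry the same 11 capital letters, which hold overlapping matches on both strands. The plus-strand match GGGAATTTCC lies 71 to 62 bases before the start in Cxcl1 and 97 to 88 bases before it in Cxcl2. Nfkbia, on chromosome 12, holds the same 10 letters on the other strand of its window, 29 to 20 bases before its start. Tnfaip3, which encodes the ubiquitin-editing enzyme A20 that shuts the pathway down, has consensus matches at 125 to 116 and at 12 to 3 bases before the start. RefSeq gave 10 windows for 8 of the 10 genes, with 2 windows each for Il33 and Tnfaip3, and 5 of these 10 windows hold a consensus match, the fifth in Ccl20 and none in the second window of Tnfaip3, against 4.51% of all 32851 windows. The sequence GGGAATTTCC, chosen after these windows were seen, occurs on either strand in 3 of the 10 windows and in 0.0883% of all windows. Since the genes were grouped under NF-kB beforehand, and Cxcl1 and Cxcl2 share their letters, these shares are descriptions and no test. A match is a description of letters and shows neither binding nor its effect, and nothing follows for genes without one.

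Each single agent lowered most of the 10 genes in PRAD organoids. After ARi, 9 genes were called lower and 1 higher (among all 18483 genes tested, 27.4% were called lower and 27.1% higher). After YAPi, all 10 were called lower, 3 of them by at least 2-fold (26.9% of all genes lower, 2.87% by at least 2-fold). The YAPi calls of Cxcl5, Il33 and Tnfaip3 did not hold under RLE scaling or with DESeq2. After NOTCHi, all 10 were called lower, 7 of them by at least 2-fold (28% and 5.37% of all genes). The median log2 fold change of the 10 genes was -0.76 after ARi, -0.54 after YAPi and -1.20 after NOTCHi, beside medians of 0, 0.064 and -0.0065 over all genes. The arms share the same 3 DMSO libraries, so their values stand side by side and are not counted as independent, and single agents were not tested against each other.

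Among the neutrophil chemokines, Cxcl1 was lowest after YAPi, and Cxcl2 and Cxcl5 after NOTCHi. Cxcl1 had 3.22, 3.18 and 3.19 CPM after YAPi, against 8.61, 10.6 and 9.90 CPM with DMSO, a log2 fold change of -1.59 ± 0.18 (edgeR adjusted p = 2.17e-10). Its log2 fold change was -0.64 ± 0.17 after ARi and -1.14 ± 0.18 after NOTCHi, with no overlap between treated and DMSO libraries in any of these arms. Cxcl2 fell to 4.23, 4.12 and 4.00 CPM after NOTCHi, against 22.7, 25.2 and 22.9 CPM with DMSO (-2.52 ± 0.13, edgeR adjusted p = 2.81e-19). Cxcl5 fell to 36.5, 34.6 and 38.2 CPM after NOTCHi and rose to 177, 179 and 179 CPM after ARi, against 141, 141 and 137 CPM with DMSO. It was thus 3.83-fold lower after NOTCHi and 1.28-fold higher after ARi, the only member that any single agent raised. After YAPi, Cxcl5 had 125, 130.5 and 131 CPM (-0.12 ± 0.04), a call that did not hold under RLE scaling (edgeR adjusted p = 0.177), with DESeq2, or without YAPi replicate 1 (edgeR adjusted p = 0.0649). That library carries a lane tag that differs from the tag of the other libraries in the table. It also had the highest total of the table, the 77790816 counts given above.

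Ccl20, the ligand of Ccr6 on dendritic cells and lymphocytes, also fell most after NOTCHi, to 4.77, 4.17 and 5.41 CPM, against 17.7, 15.1 and 18.2 CPM with DMSO (-1.82 ± 0.13). It moved less after ARi (-0.98 ± 0.12) and YAPi (-0.48 ± 0.11). Cxcl16 changed by similar amounts in all 3 arms, with log2 fold changes of -0.69 ± 0.04 after ARi, -0.61 ± 0.04 after YAPi and -0.52 ± 0.04 after NOTCHi from a DMSO level of 137 ± 0.728 CPM (SD, n = 3).

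Among the cytokine genes, Il1a was lowest after ARi, and Il33 and Tnf after NOTCHi. Il1a, an alarmin released from damaged epithelium that signals through Il1r1, fell to 2.66, 3.36 and 3.97 CPM after ARi, against 15.4, 14.5 and 13.5 CPM with DMSO (-2.12 ± 0.19, edgeR adjusted p = 7.11e-13). Its log2 fold change was -1.04 ± 0.17 after YAPi and -1.06 ± 0.18 after NOTCHi. Il33, a nuclear alarmin that signals through Il1rl1, fell to 278, 271 and 280.0 CPM after ARi and 219.7, 229 and 232 CPM after NOTCHi, against 565, 529 and 533 CPM with DMSO. After YAPi its libraries, at 476, 491 and 534 CPM, overlapped those with DMSO, and the call (-0.12 ± 0.04, edgeR adjusted p = 0.0197) did not hold under RLE scaling, with DESeq2, or without DMSO replicate 1, YAPi replicate 1 or YAPi replicate 2. Tnf, which activates NF-kB through Tnfrsf1a, fell to 9.91, 9.26 and 12.3 CPM after NOTCHi, against 31.1, 29.3 and 33.4 CPM with DMSO (-1.57 ± 0.09), and less after ARi (-0.63 ± 0.08) and YAPi (-0.65 ± 0.08).

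The feedback inhibitors fell by less than 2-fold in each single-agent arm. Nfkbia, which encodes the inhibitor that holds NF-kB in the cytoplasm, had 114, 116 and 116 CPM after ARi, 164, 152 and 148 CPM after YAPi and 129.9, 133 and 131 CPM after NOTCHi, against 171, 185 and 179 CPM with DMSO. The groups did not overlap, and the log2 fold changes were -0.63 ± 0.04, -0.20 ± 0.04 and -0.45 ± 0.04 in that order. Tnfaip3 had 48.5, 43.5 and 42.1 CPM after ARi and 44.3, 43.8 and 39.4 CPM after NOTCHi, against 79.3, 81.2 and 75.6 CPM with DMSO. Its call after YAPi (-0.17 ± 0.06, edgeR adjusted p = 0.0148) did not hold under RLE scaling, with DESeq2, or without DMSO replicate 2 or YAPi replicate 2.

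**Figure D1:**
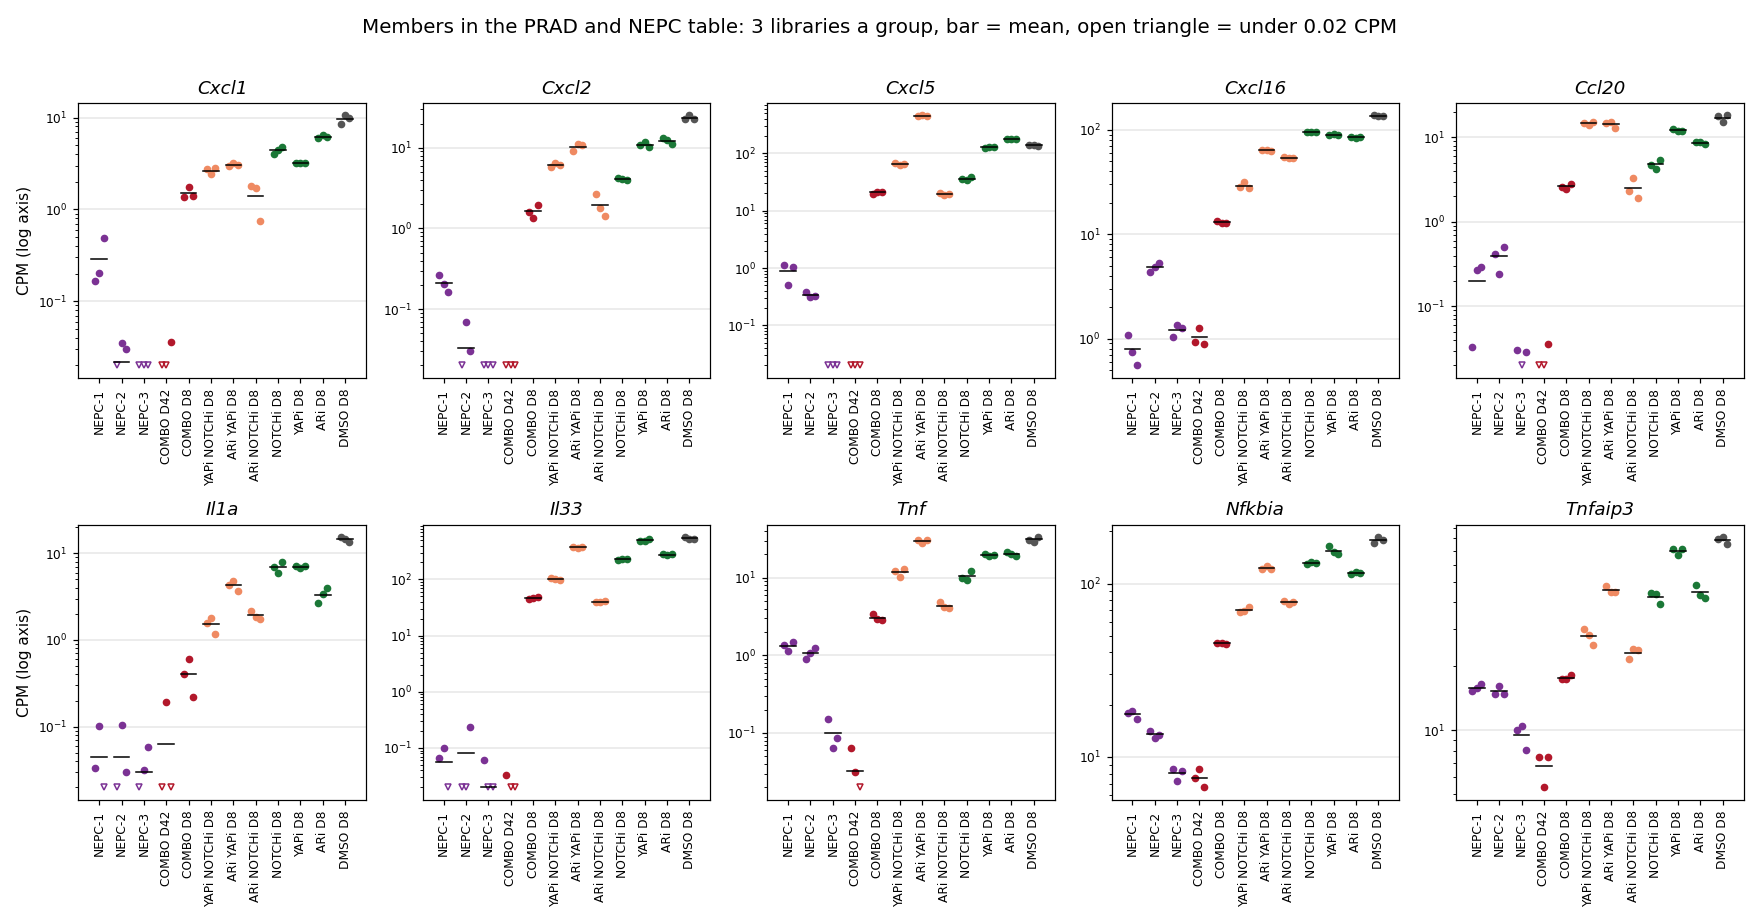
Level of each of the 10 genes in the PRAD and NEPC table, in CPM on a log axis, with 1 point per library and a bar for the mean of 3 libraries. Open triangles mark libraries under 0.02 CPM. The DMSO mean is the highest in 9 of 10 panels, Cxcl5 peaks with ARi_YAPi at 453 to 460.1 CPM, and the means of COMBO D42 and the NEPC organoids are the lowest 4 in every panel.

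Given in pairs, the agents lowered most of the 10 genes as well, with Cxcl5 as the exception after ARi_YAPi. ARi_NOTCHi lowered all 10 genes by at least 2-fold (11.4% of all genes), with a median log2 fold change of -2.80 beside 0.0023 over all genes. YAPi_NOTCHi lowered 9 of them (35.1% of all genes), with a median of -1.68 beside 0.055. ARi_YAPi lowered 8 and raised 1 (30.5% of all genes lower and 39.7% higher), with a median of -0.66 beside 0.072.

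Cxcl5 had the widest range of log2 fold changes over the pairs. It had 453, 460.1 and 456 CPM after ARi_YAPi, against 141, 141 and 137 CPM with DMSO, which was 3.27-fold higher (1.71 ± 0.04, edgeR adjusted p = 2.65e-31). After ARi_NOTCHi it had 20.4, 19.1 and 19.8 CPM (-2.82 ± 0.05), and after YAPi_NOTCHi 67.6, 62.5 and 64.1 CPM (-1.11 ± 0.04). The libraries of these arms did not overlap each other or those with DMSO. Cxcl1 and Cxcl2, its neighbours on chromosome 5, were lower than DMSO in every pair. After ARi_YAPi, Cxcl1 had 2.95, 3.19 and 3.06 CPM (-1.66 ± 0.18) and Cxcl2 had 9.06, 11.2 and 10.7 CPM (-1.19 ± 0.11), against DMSO values of 9.69 ± 0.991 and 23.6 ± 1.41 CPM in the same order (SD, n = 3). After ARi_NOTCHi both were lower still, with Cxcl1 at 1.79, 1.70 and 0.749 CPM and Cxcl2 at 2.66, 1.78 and 1.42 CPM.

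Ccl20 was near its DMSO level in both pairs that hold YAPi. It had 14.9, 14.1 and 15.02 CPM after YAPi_NOTCHi, against 17.7, 15.1 and 18.2 CPM with DMSO, and did not pass the test (-0.21 ± 0.11, edgeR adjusted p = 0.0869), though it passed when only these groups were fitted (edgeR adjusted p = 0.0294) or without DMSO replicate 2 (edgeR adjusted p = 0.0357). After ARi_YAPi it had 14.8, 15.05 and 12.8 CPM, and its call (-0.25 ± 0.11, edgeR adjusted p = 0.0456) did not hold under RLE scaling, with DESeq2, or without DMSO replicate 1 or 3 or ARi_YAPi replicate 1 or 3. After ARi_NOTCHi, in contrast, Ccl20 fell to 2.33, 3.33 and 1.93 CPM (-2.75 ± 0.14). For Cxcl16 the order of YAPi_NOTCHi and ARi_NOTCHi was the opposite, with 28.2, 31.4 and 27.7 CPM after YAPi_NOTCHi and 54.8, 54.4 and 53.7 CPM after ARi_NOTCHi, against 138, 136 and 136 CPM with DMSO. Among the pairs, Cxcl16 was highest after ARi_YAPi, at 63.9, 64.5 and 63.2 CPM.

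Il33 fell to 39.5, 40.3 and 41.3 CPM after ARi_NOTCHi, which was 13.4-fold below DMSO, against 565, 529 and 533 CPM with DMSO (edgeR adjusted p = 3.09e-41). It stood at 106, 103 and 97.4 CPM after YAPi_NOTCHi and at 372, 365 and 377 CPM after ARi_YAPi. Every pair therefore left Il33 below DMSO, in non-overlapping groups, and the pairs with NOTCHi left least. Il1a was lowest after YAPi_NOTCHi, at 1.56, 1.81 and 1.16 CPM (-3.25 ± 0.21), and had 2.16, 1.87 and 1.74 CPM after ARi_NOTCHi and 4.29, 4.84 and 3.65 CPM after ARi_YAPi. Tnf fell to 4.86, 4.26 and 4.02 CPM after ARi_NOTCHi (-2.84 ± 0.10) and 12.1, 10.4 and 13.1 CPM after YAPi_NOTCHi (-1.40 ± 0.09). After ARi_YAPi, Tnf had 30.6, 28.1 and 30.3 CPM and overlapped DMSO at 31.1, 29.3 and 33.4 CPM (-0.08 ± 0.08, edgeR adjusted p = 0.420). Nfkbia had 68.4, 69.7 and 73.2 CPM after YAPi_NOTCHi, 79.1, 76.1 and 78.8 CPM after ARi_NOTCHi and 122, 126 and 121 CPM after ARi_YAPi. Tnfaip3 averaged 27.8 ± 2.40 CPM after YAPi_NOTCHi, 23.2 ± 1.42 CPM after ARi_NOTCHi and 45.9 ± 1.80 CPM after ARi_YAPi, against 78.7 ± 2.83 CPM with DMSO (SD, n = 3 each).

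An interaction term asks whether a pair differs from the sum of the log2 effects of its single agents. Between YAPi and NOTCHi, 5 genes had a positive term and 5 a negative one, all called (28.2% of all genes were called positive and 30.8% negative). The positive ones were Ccl20 (2.09 ± 0.18), Cxcl2 (1.68 ± 0.18), Cxcl5 (0.94 ± 0.06), Cxcl1 (0.86 ± 0.26) and Tnf (0.82 ± 0.13), so the pair lowered these less than the single effects add up to. The negative ones were Il1a (-1.16 ± 0.29), Cxcl16 (-1.11 ± 0.06), Il33 (-1.03 ± 0.07), Nfkbia (-0.69 ± 0.06) and Tnfaip3 (-0.43 ± 0.10), which the pair lowered more. Between ARi and YAPi, 8 genes had a called positive term and 0 a negative one (19.2% and 17.4% of all genes), led by Cxcl5 (1.47 ± 0.05), Il1a (1.40 ± 0.27), Ccl20 (1.21 ± 0.17) and Tnf (1.21 ± 0.12). The 2 without a call were Cxcl1 (0.58 ± 0.25, edgeR adjusted p = 0.0699) and Tnfaip3 (0.21 ± 0.09, edgeR adjusted p = 0.0692), and both passed when only these groups were fitted. Between ARi and NOTCHi, 4 genes had a called negative term and 0 a positive one (20.6% and 18.7% of all genes): Il33 (-1.51 ± 0.07), Cxcl5 (-1.24 ± 0.07), Cxcl1 (-0.998 ± 0.28) and Tnf (-0.63 ± 0.14). In that comparison the share of calls that were positive depended on the scaling, 47.6% of all calls with TMM against 35.7% with RLE scaling, under which Nfkbia and Cxcl16 were also called negative.

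**Figure D2:**
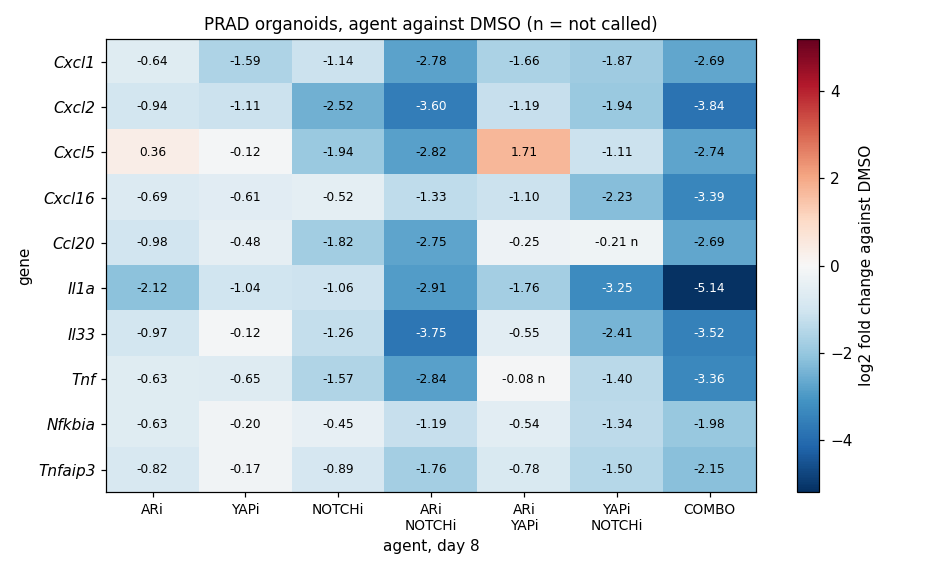
Log2 fold change of each gene in PRAD organoids for each agent against DMSO at day 8, blue for lower and red for higher, with n beside values that were not called. The COMBO and ARi_NOTCHi columns are blue throughout, with values of -1.19 or lower in all 20 cells, of which Il1a with COMBO is a fitted value with no test. Cxcl5 is the only red row, at 0.36 after ARi and 1.71 after ARi_YAPi.

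At day 8 of COMBO, 9 of the 10 genes reached the minimum of the filter on low counts in every library of both groups, and all 9 were called lower by at least 2-fold (15.2% of all genes), with a median log2 fold change of -2.74 beside 0.026 over all genes. Il1a reached that minimum in every DMSO library but not in every COMBO library, so its values are given with no test. It had 0.408, 0.599 and 0.222 CPM, against 15.4, 14.5 and 13.5 CPM with DMSO (fitted log2 fold change -5.14). Cxcl2 fell to 1.60, 1.35 and 1.97 CPM, against 22.7, 25.2 and 22.9 CPM (-3.84 ± 0.14), and Il33 to 45.7, 46.9 and 49.3 CPM, against 565, 529 and 533 CPM (-3.52 ± 0.05). Cxcl16 fell to 13.5, 12.7 and 12.9 CPM, against 138, 136 and 136 CPM (-3.39 ± 0.05), below the level of every pair. Nfkbia moved least, to 45.3, 45.4 and 44.96 CPM, against 171, 185 and 179 CPM (-1.98 ± 0.04).

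Set against the pairs, COMBO at day 8 was not told apart from ARi_NOTCHi for 4 of the 5 chemokines. Of the same 9 genes, 4 were called lower and 1 higher than with ARi_NOTCHi (36% and 34.4% of all genes), and Cxcl1, Cxcl2, Cxcl5 and Ccl20 did not pass the test. Cxcl5 had 19.8, 21.5 and 21.3 CPM with COMBO, against 20.4, 19.1 and 19.8 CPM with ARi_NOTCHi (0.08 ± 0.06, edgeR adjusted p = 0.20). The differences were 0.09 ± 0.24 for Cxcl1, -0.24 ± 0.19 for Cxcl2 and 0.06 ± 0.18 for Ccl20, whose SEs leave room for a difference in either direction. Cxcl16 (-2.06 ± 0.05) was the gene among these 9 that COMBO took at least 2-fold below ARi_NOTCHi. Il33 was slightly higher with COMBO, at 45.7, 46.9 and 49.3 CPM, against 39.5, 40.3 and 41.3 CPM with ARi_NOTCHi (0.23 ± 0.06, edgeR adjusted p = 6.14e-04). Against YAPi_NOTCHi and against ARi_YAPi, the 9 genes other than Il1a were called lower with COMBO (21.9% and 35.9% of all genes), from -0.64 for Nfkbia to -2.47 for Ccl20 in the first comparison and from -1.03 for Cxcl1 to -4.45 for Cxcl5 in the second.

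At day 42 of COMBO, most ligand genes were at or near 0 counts. Cxcl2 and Cxcl5 had 0 counts in all 3 libraries, which at a floor of 3 counts over the group is at least 710.3-fold and at least 4209-fold lower than with DMSO. Cxcl1, Ccl20 and Il33 had 1 count each over the 3 libraries. Tnf had 3 counts, so its level with DMSO was 322 to 4572 times that at day 42 (exact 95% Poisson interval, counting error only). Il1a had 0, 0.191 and 0 CPM, all from replicate 2, and its fitted log2 fold change of -7.68 against DMSO became -11.72 without that library, a value that depends on the prior count because 0 counts remain. The remaining 3 genes stayed measurable. Cxcl16 had 0.939, 1.27 and 0.891 CPM at day 42 and 13.5, 12.7 and 12.9 CPM at day 8, against 138, 136 and 136 CPM with DMSO. Nfkbia had 7.54, 8.51 and 6.67 CPM at day 42, 23.5-fold below DMSO and 5.95-fold below COMBO at day 8. Tnfaip3 had 7.51, 5.40 and 7.45 CPM at day 42, 11.6-fold below DMSO, the smallest fitted fall among the 10. These 3 were called lower at day 42 than with DMSO at day 8 (43.3% of all genes) and than with COMBO at day 8 (34.8%), while the other 7 passed the filter through other groups alone, so their calls carry no weight here. DMSO at day 42 was not among the groups, so culture time and COMBO cannot be told apart at this point.

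Markers of other cell states moved alongside. The summed level of 3 neuroendocrine markers was 2744 to 2884 CPM with COMBO at day 42 and 940.2 to 986 CPM at day 8, against 0.115 to 0.657 CPM with DMSO. The summed level of 6 epithelial markers was 3002 to 3263 CPM at day 42 and 5982 to 6146 CPM at day 8, against 11359 to 11964 CPM with DMSO. For the 5 immune markers with values, the sum was 0.291 to 0.606 CPM at day 42, with Csf1r and S100a8 at 0, and 4.96 to 5.63 CPM at day 8, with Lyz2 at 0, against 22.96 to 24.04 CPM with DMSO, with Csf1r at 0. Among the fibroblast markers, 2 of 6 had values, and their sum, nearly all Dcn, was 1.18 to 1.62 CPM with COMBO at day 42, 166 to 171 CPM with COMBO at day 8 and 1004 to 1039 CPM after ARi_NOTCHi, against 82.1 to 86.7 CPM with DMSO. The part of these shifts in the falls of the 10 genes was not tested.

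The NEPC-1, NEPC-2 and NEPC-3 organoids also held little of these transcripts, with differences between them. The labels give no day for NEPC organoids, so culture time and kind of organoid cannot be told apart against the PRAD groups. Cxcl16, Nfkbia and Tnfaip3 reached the minimum of the filter on low counts in all 3, Cxcl5 in NEPC-1 only and Tnf in NEPC-1 and NEPC-2, and each was called lower there than in PRAD DMSO libraries (42%, 42.7% and 42.2% of all genes in NEPC-1, NEPC-2 and NEPC-3). The other genes passed the filter through other groups, so only their values are given. Il33, the highest of the 10 in PRAD organoids with DMSO, had 0.0670, 0.101 and 0 CPM in NEPC-1, 0, 0 and 0.240 CPM in NEPC-2 and 0.0605, 0 and 0 CPM in NEPC-3, against 565, 529 and 533 CPM in PRAD DMSO libraries. Il1a was likewise at most 0.105 CPM in every NEPC library. Cxcl1, Cxcl2 and Cxcl5 had 0 counts in NEPC-3, at least 319-fold, 779.9-fold and 4621-fold below PRAD DMSO libraries. In NEPC-1, Cxcl5 had 1.14, 0.505 and 1.04 CPM, Cxcl2 0.268, 0.202 and 0.163 CPM and Cxcl1 0.168, 0.202 and 0.488 CPM. In NEPC-2, Cxcl5 had 0.388, 0.314 and 0.330 CPM, while Cxcl2 had 3 and Cxcl1 2 counts over the 3 libraries.

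Cxcl16 set NEPC-2 apart, with 4.34, 4.82 and 5.31 CPM, against 1.07, 0.741 and 0.553 CPM in NEPC-1 (2.61 ± 0.14, edgeR adjusted p = 2.58e-20), and it had 1.03, 1.36 and 1.27 CPM in NEPC-3. Tnf had 0.151, 0.0632 and 0.0868 CPM in NEPC-3, against 0.906, 1.08 and 1.23 CPM in NEPC-2 and 1.37, 1.15 and 1.497 CPM in NEPC-1. It did not reach the filter's minimum in NEPC-3, so these values are given with no test. Nfkbia was ordered NEPC-1, NEPC-2, NEPC-3 from high to low without overlap, at 8.53, 7.24 and 8.30 CPM in NEPC-3, 14.1, 12.9 and 13.4 CPM in NEPC-2 and 17.9, 18.4 and 16.5 CPM in NEPC-1. Tnfaip3 had 10.04, 10.5 and 8.04 CPM in NEPC-3, 14.9, 16.1 and 14.8 CPM in NEPC-2 and 15.2, 15.8 and 16.5 CPM in NEPC-1, and NEPC-2 and NEPC-1 did not differ beyond their spread (-0.06 ± 0.08, edgeR adjusted p = 0.596). Among genes that reached the filter's minimum in both groups, 2 of 4 were called between NEPC-2 and NEPC-1 (57.4% of all genes), 3 of 3 between NEPC-3 and NEPC-1 (58.1%) and 3 of 3 between NEPC-3 and NEPC-2 (61.1%). The call of Cxcl16 between NEPC-3 and NEPC-1 (0.63 ± 0.19) was lost when only these groups were fitted (edgeR adjusted p = 0.0655).

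Against COMBO at day 42, Cxcl16, Nfkbia and Tnfaip3 were the genes that reached the minimum of the filter on low counts in all groups compared. The mean of the 3 NEPC groups was called higher for each of them (33.2% of all genes were called higher and 31.7% lower). The feedback inhibitors were among them, Tnfaip3 by 0.96 ± 0.08 and Nfkbia by 0.71 ± 0.06 on the log2 scale. Nfkbia in NEPC-3, at 8.53, 7.24 and 8.30 CPM, overlapped COMBO at day 42, at 7.54, 8.51 and 6.67 CPM. Cxcl16 was higher in the NEPC mean by 0.68 ± 0.14. Tnf, with 3 counts at day 42, and Ccl20, with 1, did not reach that minimum in every group compared, so their calls carry no weight here. The mean does not describe each group. Cxcl16 was above COMBO at day 42 without overlap in NEPC-2 alone, since NEPC-3 and NEPC-1 overlapped the day 42 libraries, at 0.939, 1.27 and 0.891 CPM. Tnf in NEPC-3 overlapped day 42, at 0.0647, 0.0318 and 0 CPM, and Ccl20 had 2 counts in NEPC-3 over 3 libraries. The fitted log2 difference for Tnf, 3.83, became 4.66 without replicate 1 of COMBO at day 42 and is not used. The neuroendocrine marker sums were 1245 to 1276 CPM in NEPC-1, 1635 to 1723 CPM in NEPC-2 and 888 to 923 CPM in NEPC-3, against 2744 to 2884 CPM with COMBO at day 42, and their part in these differences was not tested.

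Other genes of the pathway were counted as response genes and as signalling components. These and the later list counts take in every gene that passed the filter, also those near 0 counts in 1 of the groups compared. They are therefore descriptions. Of 27 further NF-kB response genes, 21 passed the filter on low counts in the PRAD and NEPC table, and with COMBO at day 8 18 fell and 3 rose (38.7% of all genes lower and 41.1% higher), with a median log2 fold change of -1.78 beside 0.026 over all genes. Among the largest changes were those of Csf3, a granulocyte growth factor, at 0.0484 CPM with COMBO against 6.93 CPM with DMSO, and of Ptgs2, the prostaglandin synthase COX-2, at 7.68 against 101 CPM. At day 42, 20 fell and 1 rose (43.3% of all genes lower and 41.2% higher, with a median of -5.76 beside -0.034). Among them were Icam1, a leukocyte adhesion receptor, at 0.0542 CPM against 102 CPM, and Lcn2, an iron-binding antibacterial protein, at 0.0912 against 217 CPM. At day 42 both lay under the filter's minimum of 0.361 CPM and passed it through other groups, so this count and median carry no weight as a test. The single agents gave mixed counts in this list, 11 fallen and 4 risen after ARi (27.4% of all genes lower and 27.1% higher), 9 and 8 after YAPi (26.9% of all genes lower and 35% higher), and 12 and 3 after NOTCHi (28% of all genes lower and 26% higher). After YAPi the complement gene C3 rose to 611, 614 and 579 CPM, against 191, 189.8 and 189 CPM with DMSO, and after ARi_YAPi to 1195, 1194 and 1196 CPM, beside the rise of Cxcl5 in that arm. Of 28 signalling components, all of which passed the filter, 21 fell and 4 rose with COMBO at day 8 (median -0.45). After ARi_YAPi 10 fell and 13 rose (median 0.04), shares near those over all genes (30.5% of all genes lower and 39.7% higher). Nfkb2, which encodes the p100 precursor of the noncanonical pathway, had 6.07 CPM at day 42 and 30.6 CPM at day 8 of COMBO, against 118 CPM with DMSO, and Relb, its partner, 3.02 CPM at day 42 against 49.96 CPM with DMSO.

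Among 20 further chemokine and interleukin-1 family genes tested, ARi_YAPi raised 16 and lowered 3 (39.7% of all genes were called higher), with a median of 1.09 beside 0.072. Cxcl15, a neutrophil chemokine of mouse epithelia, had 587, 600.3 and 593 CPM after ARi_YAPi and 265, 263 and 270.5 CPM after ARi, against 54.9, 50.5 and 49.8 CPM with DMSO, so it was raised in the same arms as Cxcl5. Cxcl17, a mucosal chemokine, had 62.9, 69.6 and 67.1 CPM after YAPi, against 5.73, 4.95 and 6.55 CPM with DMSO, and 0.166, 0.309 and 0.0826 CPM after NOTCHi. In the NEPC organoids Cxcl14, an epithelial chemokine, rose, with 138, 139 and 137 CPM in NEPC-1, 100.1, 101 and 100.5 CPM in NEPC-2 and 186, 183 and 182 CPM in NEPC-3, against 0.384, 0.657 and 0.357 CPM in PRAD DMSO libraries. At day 42 of COMBO, 15 of the 20 fell and 4 rose (43.3% of all genes lower and 41.2% higher). Of 10 receptor genes for the ligands, 6 passed the filter. Il1r2, the decoy receptor that binds interleukin 1 without signalling, had 473, 496 and 484 CPM after ARi_NOTCHi, 212, 209 and 204 CPM with COMBO at day 8 and 128, 129 and 132 CPM after NOTCHi, against 4.27, 3.81 and 5.26 CPM with DMSO. It was thus 109-fold higher after ARi_NOTCHi, while Il1a and the signalling receptor Il1r1 fell, Il1r1 to 3.66 CPM with COMBO at day 8 against 31.2 CPM with DMSO. The TNF receptor gene Tnfrsf1b had 1.26 CPM after ARi_NOTCHi and 29.5 CPM after YAPi, against 15.8 CPM with DMSO.

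The genes whose group means over the 12 PRAD and NEPC groups were most like each member are given as a description (Pearson's r of log2 CPM, n = 12 groups that share a normalization, genes of average log2 CPM of at least 3). For every member the lowest means were those of COMBO at day 42 and the NEPC organoids, and the lowest r between members was 0.897 (Il33 with Tnfaip3). A high r is therefore not particular to the genes named. For Nfkbia they were Nfkb2 (r = 0.994), Dcxr and Cib1. Cxcl1 was most like Dcxr (r = 0.98), Tnfaip2 and Nfkbia, and Cxcl2 most like Cxcl5 (r = 0.979), Nfkbia and Slc45a3. Between each other, Cxcl1 and Cxcl2 had r = 0.984, above these values, but neither reaches that average level. Cxcl5 (r = 0.99) and Ccl20 (r = 0.989) were both most like Cd14, which encodes the co-receptor for bacterial lipopolysaccharide, and Tnf most like Bcl3 (r = 0.982). Cxcl16 was most like Anxa3 (r = 0.994), Il1a like Tmod3 (r = 0.992), and Tnfaip3 like Hpse (r = 0.983). Il33 stood nearest to Gsta4 (r = 0.997), the keratin gene Krt6a and the annexin gene Anxa8.

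In TKOM organoids, suspension to day 30 was set against Matrigel. Culture time and matrix cannot be told apart here, since the labels give no day for Matrigel. Of the 10 genes, 8 reached the minimum of the filter on low counts in every library of both groups, and all 8 were called lower in suspension by at least 2-fold (16% of all 15733 genes tested), with a median log2 fold change of -2.26 beside -0.0044 over all genes. The alarmins Il33 and Il1a reached that minimum in every Matrigel library but not in every suspension library, so their values are given with no test. Il33 had 0.488, 0.560 and 0.281 CPM in suspension, against 92.3, 88.7 and 95.0 CPM in Matrigel (fitted log2 fold change -7.68). Il1a had 0.0814, 0 and 0.125 CPM in suspension, against 14.2, 13.8 and 13.5 CPM in Matrigel (fitted log2 fold change -7.57, or -8.22 without suspension replicate 3). Cxcl1 had 1.19, 0.841 and 1.09 CPM in suspension, against 9.14, 8.17 and 9.15 CPM in Matrigel (-3.07 ± 0.15). Cxcl2 had 2.01, 1.62 and 1.47 CPM, against 13.6, 13.2 and 13.9 CPM (-2.99 ± 0.12), and Cxcl5 4.72, 5.14 and 5.21 CPM, against 15.4, 16.3 and 14.7 CPM (-1.62 ± 0.09), the smallest difference of the 8. Tnf (-2.83 ± 0.13), Cxcl16 (-2.13 ± 0.05) and Ccl20 (-1.94 ± 0.12) lay between. Nfkbia had 51.0, 50.7 and 52.9 CPM in suspension, against 175, 168 and 167 CPM in Matrigel (-1.72 ± 0.03), and Tnfaip3 7.76, 8.78 and 7.92 CPM, against 40.3, 44.5 and 42.8 CPM (-2.38 ± 0.07).

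**Figure D3:**
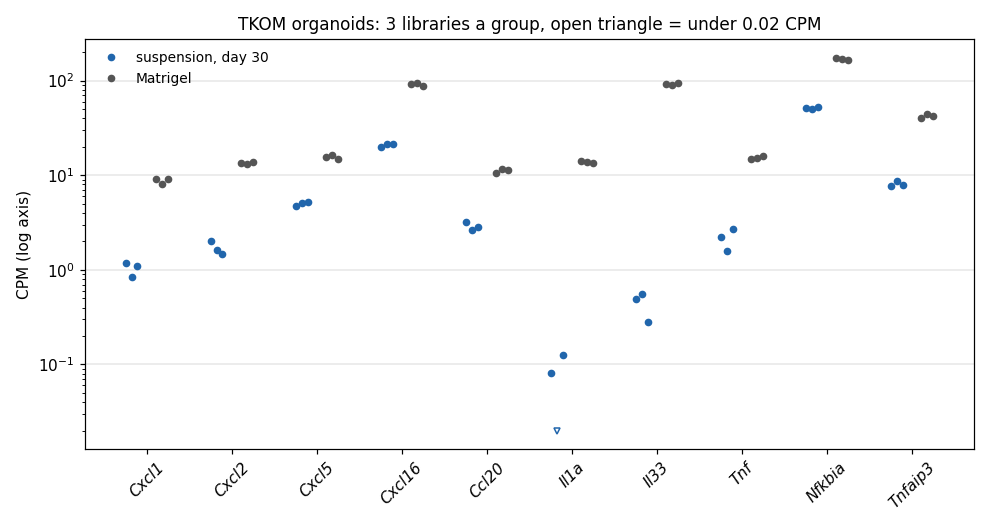
Level of each gene in TKOM organoids, in CPM on a log axis, with suspension at day 30 left of Matrigel and 1 point per library. All 3 suspension libraries lie below all 3 Matrigel libraries for every gene, and the gap is widest for Il33 and Il1a. An open triangle marks a library under 0.02 CPM.

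Of the 22 other response genes tested here, 19 fell and 2 rose in suspension (38.9% of all genes lower and 38.3% higher; median -2.53), including Icam1 at 0.922, 0.841 and 1.06 CPM, against 63.6, 58.4 and 54.6 CPM in Matrigel. Of the 28 signalling components, 18 fell and 9 rose (median -0.32). The share that rose was near that over all genes, and the share that fell was above that over all genes. Among those that fell were Nfkbie, an inhibitor of the Nfkbia family, at 0.587 CPM against 6.16 CPM, and Relb at 2.56 CPM against 22.2 CPM. Of 15 further chemokine and interleukin-1 family genes, 11 fell and 2 rose (median -1.76). The epithelial marker sum was 1786 to 1804 CPM in suspension, against 4257 to 4488 CPM in Matrigel, and the 1 neuroendocrine marker with values, Insm1, was at 21.9 to 23.2 CPM, against 0.0322 to 0.152 CPM. The 2 of 10 immune markers with values summed to 2.93 to 3.89 CPM in suspension, against 89.3 to 93.6 CPM in Matrigel, of which Cd68 was 3.42 CPM against 90.9 CPM. The 1 endothelial marker with values, Pecam1, was at 12.5 to 13.04 CPM, against 0.239 to 0.406 CPM, and the 1 fibroblast marker, Dcn, at 0 to 0.0271 CPM, against 10.4 to 11.8 CPM. The part of these shifts in the result was not tested.

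With the solvent DMSO alone, the genotypes already differed. In DMSO, 7 of the 10 genes were higher and 3 lower in PtP than in WT organoids (30.1% and 30.8% of all 18430 genes tested), and the same counts held for TKO against WT (32.5% and 30.4%). The genes that were higher included both feedback inhibitors: Nfkbia had 181, 181 and 182 CPM in TKO and 192, 179.9 and 183 CPM in PtP, against 87.8, 87.6 and 84.4 CPM in WT organoids, and Tnfaip3 102, 109.8 and 109.7 CPM in TKO and 109, 113 and 113 CPM in PtP, against 53.0, 53.7 and 51.2 CPM in WT organoids. Ccl20 differed most, with 16.3, 17.1 and 16.8 CPM in TKO and 11.97, 10.2 and 10.5 CPM in PtP, against 2.73, 2.97 and 3.03 CPM in WT organoids, 5.75-fold and 3.74-fold higher. Cxcl16 (1.36 ± 0.03), Tnf (1.25 ± 0.08), Cxcl2 (0.72 ± 0.08) and Cxcl5 (0.45 ± 0.05) were also higher in PtP than in WT. Cxcl1 ran against its neighbours, with 17.3, 19.5 and 20.01 CPM in TKO and 14.1, 13.99 and 14.7 CPM in PtP, against 28.8, 24.1 and 23.9 CPM in WT organoids (-0.43 ± 0.07 for TKO and -0.85 ± 0.08 for PtP). The alarmins were lower too, Il33 at 316, 308 and 320.2 CPM in TKO and 326, 315 and 329 CPM in PtP, against 447, 450.3 and 455 CPM in WT organoids, and Il1a changed by -0.54 ± 0.09 in TKO and -0.31 ± 0.09 in PtP.

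TKO and PtP were close to each other. Of the 10 genes, 4 were higher and 1 lower in TKO (13.1% and 13.4% of all genes), and 0 differed by 2-fold (1.16% of all genes in either direction). The 4 were the chemokines Ccl20 (0.62 ± 0.08), Cxcl5 (0.53 ± 0.04), Cxcl1 (0.42 ± 0.08) and Cxcl2 (0.34 ± 0.07). Cxcl16 differed by -0.10 ± 0.03, a call lost without TKO replicate 3 with DMSO (edgeR adjusted p = 0.0738). For Nfkbia the difference was -0.03 ± 0.03 and for Tnfaip3 -0.06 ± 0.03, neither of which passed the test. Il1a was at the threshold, at -0.23 ± 0.09 (edgeR adjusted p = 0.0503), and passed it under RLE scaling, when only these groups were fitted, with a replicate block (edgeR adjusted p = 0.0314), or without TKO replicate 1 with DMSO. Of 21 other response genes, 16 were higher and 4 lower in PtP than in WT (30.1% of all genes higher and 30.8% lower; median 1.10 beside 0 over all genes), among them Lcn2 at 158, 158 and 145 CPM in PtP, against 10.1, 7.93 and 8.21 CPM in WT organoids. Of the 28 signalling components, 20 were higher and 3 lower in PtP, beside the same shares over all genes (median 0.39), led by the receptors for bacterial lipoprotein, Tlr2, at 11.2 CPM against 1.499 CPM, and for double-stranded RNA, Tlr3, at 52.9 CPM against 8.05 CPM.

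**Figure D4:**
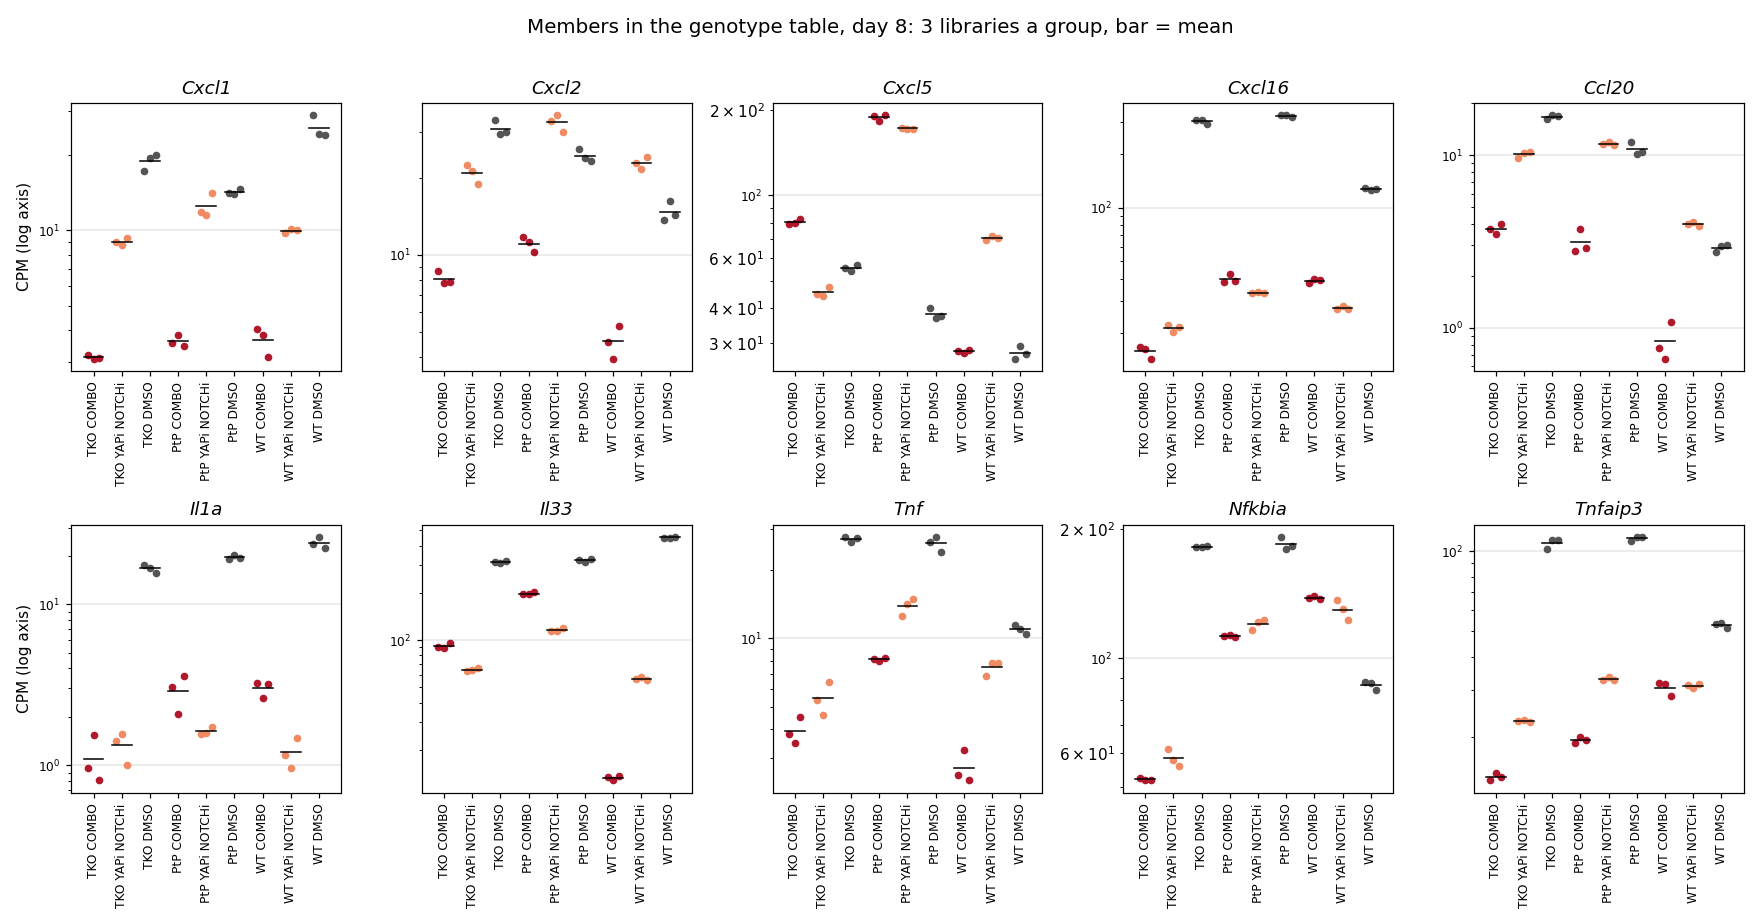
Level of each gene in TKO, PtP and WT organoids with COMBO, YAPi_NOTCHi or DMSO at day 8, in CPM on a log axis, with 1 point per library and a bar for the mean of 3 libraries. With DMSO, Nfkbia lies at 179.9 to 192 CPM in TKO and PtP and at 84.4 to 87.8 CPM in WT organoids; with COMBO, WT lies above TKO and PtP.

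The effect of YAPi_NOTCHi on the 10 genes differed between genotypes. In TKO organoids all 10 were called lower (40.6% of all genes), in PtP 7 lower and 2 higher (40.6% and 44.9%), and in WT 6 lower and 4 higher (40.2% and 45.5%). The medians over the 10 genes were -1.93 in TKO, -0.76 in PtP and -0.65 in WT, beside 0.10, 0.087 and 0.11 over all genes. With YAPi_NOTCHi against DMSO, Nfkbia had 61.3, 57.8 and 56.1 against 181, 181 and 182 CPM in TKO (-1.63 ± 0.03), 116, 122 and 122.6 against 192, 179.9 and 183 CPM in PtP (-0.62 ± 0.03) and 136, 130.3 and 122.7 against 87.8, 87.6 and 84.4 CPM in WT (0.58 ± 0.03). It was therefore lower than DMSO in TKO and PtP and higher than DMSO in WT, with no overlap in any genotype, and the TKO and WT effects differed by -2.22 ± 0.05 (edgeR adjusted p = 2.28e-34). Cxcl5 had 44.98, 44.1 and 47.3 against 55.1, 53.8 and 56.8 CPM in TKO (-0.28 ± 0.04), 174, 172 and 172 against 39.9, 36.8 and 37.5 CPM in PtP (2.18 ± 0.03) and 69.5, 71.6 and 70.6 against 26.4, 29.4 and 27.4 CPM in WT (1.34 ± 0.04). The rise was thus larger in PtP than in WT, by 0.83 ± 0.06, and TKO showed a fall.

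Cxcl16, Il1a and Il33 fell in all 3 genotypes. Cxcl16 had 22.1, 20.2 and 21.6 against 309, 309 and 292 CPM in TKO (-3.83 ± 0.04), 33.4, 33.8 and 33.5 against 329, 329 and 319 CPM in PtP (-3.28 ± 0.04) and 27.1, 28.03 and 27.02 against 128, 125 and 127 CPM in WT (-2.21 ± 0.04). With YAPi_NOTCHi its libraries spanned 20.2 to 33.8 CPM over the genotypes, while those with DMSO spanned 125 to 329 CPM. Il1a changed by -3.65 ± 0.14 in TKO, -3.59 ± 0.13 in PtP and -4.40 ± 0.14 in WT, to between 0.960 and 1.73 CPM. Il33 had 63.4, 64.4 and 66.6 CPM in TKO (-2.28 ± 0.03), 114, 114 and 119 CPM in PtP (-1.48 ± 0.03) and 56.2, 58.6 and 56.2 CPM in WT (-2.98 ± 0.03), and the PtP and WT effects differed by 1.49 ± 0.04. Cxcl2 rose in PtP (0.44 ± 0.07) and WT (0.62 ± 0.08) and fell in TKO (-0.57 ± 0.07), with a difference between TKO and PtP of -1.01 ± 0.10. Ccl20 fell in TKO (-0.72 ± 0.08), rose in WT (0.46 ± 0.13) and did not pass the test in PtP (0.09 ± 0.08, edgeR adjusted p = 0.273). Cxcl1 fell in TKO (-1.08 ± 0.08) and WT (-1.36 ± 0.08), and its call in PtP (-0.20 ± 0.08, edgeR adjusted p = 0.0192) was lost under RLE scaling, with DESeq2, when only these groups were fitted, or without PtP replicate 3 with DMSO or PtP replicate 1 or 2 with YAPi_NOTCHi. Tnf fell most in TKO (-2.30 ± 0.09), less in PtP (-0.91 ± 0.08) and least in WT (-0.54 ± 0.10), and Tnfaip3 took the same order, at -2.23 ± 0.04, -1.75 ± 0.04 and -0.76 ± 0.04.

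COMBO also lowered most of the 10 genes in every genotype. In TKO 9 of the 10 genes were called lower and 1 higher (41% and 46.2% of all genes), in PtP 9 and 1 (40.2% and 44.8%), and in WT 8 and 1 (40.8% and 44.9%). The one that was higher was Cxcl5 in TKO and PtP and Nfkbia in WT. Cxcl5 had 79.3, 79.6 and 82.3 CPM with COMBO in TKO (0.54 ± 0.03) and 191, 183 and 192 CPM in PtP (2.31 ± 0.03), while in WT it had 28.2, 27.8 and 28.5 CPM, against 26.4, 29.4 and 27.4 CPM with DMSO, and did not pass the test (0.02 ± 0.05). Nfkbia had 52.5, 51.9 and 52.1 CPM in TKO (-1.80 ± 0.03), 112.5, 113 and 111.7 CPM in PtP (-0.72 ± 0.03) and 138, 139.8 and 137 CPM in WT (0.67 ± 0.03), so WT held the most Nfkbia with COMBO and the least with DMSO. Tnfaip3 fell to 13.7, 14.6 and 14.05 CPM in TKO, 19.02, 19.9 and 19.4 CPM in PtP and 31.8, 31.5 and 28.5 CPM in WT, with TKO and WT effects that differed by -2.16 ± 0.06. Il33 had the largest difference of COMBO effects between genotypes, with 91.1, 89.6 and 95.9 CPM in TKO (-1.77 ± 0.03), 196, 196 and 203 CPM in PtP (-0.71 ± 0.03) and 13.5, 12.8 and 13.6 CPM in WT (-5.08 ± 0.04). The PtP and WT effects on Il33 differed by 4.37 ± 0.05 (edgeR adjusted p = 2.63e-44), and the WT libraries with COMBO held 33.9-fold less Il33 than those with DMSO.

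Cxcl1, Cxcl2, Ccl20 and Tnf were lower with COMBO than with DMSO in all 3 genotypes. Cxcl1 fell to 3.18, 3.08 and 3.10 CPM in TKO, 3.56, 3.84 and 3.46 CPM in PtP and 4.03, 3.82 and 3.13 CPM in WT (-2.59 ± 0.09, -1.98 ± 0.10 and -2.81 ± 0.09). Cxcl2 changed by -1.90 ± 0.07 in TKO, -1.12 ± 0.08 in PtP and -1.68 ± 0.11 in WT. Ccl20 changed by -2.16 ± 0.08 in TKO, -1.82 ± 0.10 in PtP and -1.79 ± 0.19 in WT, and the PtP and WT effects did not pass the test of their difference (-0.03 ± 0.25). Against YAPi_NOTCHi in the same genotype, COMBO had lower Cxcl1, Cxcl2, Ccl20 and Tnf in TKO, PtP and WT (for all genes, 27.6%, 25.4% and 28.3% were called lower in that order). For Ccl20 these differences were -1.44 ± 0.09 in TKO, -1.92 ± 0.10 in PtP and -2.25 ± 0.16 in WT. Nfkbia changed little between the agents, by -0.16 ± 0.04 in TKO, -0.10 ± 0.03 in PtP and 0.09 ± 0.03 in WT, the last a call that was lost with DESeq2, when only these groups were fitted, or without replicate 3 of WT with YAPi_NOTCHi. Il33 was higher with COMBO than with YAPi_NOTCHi in TKO (0.51 ± 0.03) and PtP (0.78 ± 0.03) and lower in WT (-2.10 ± 0.04).

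**Figure D5:**
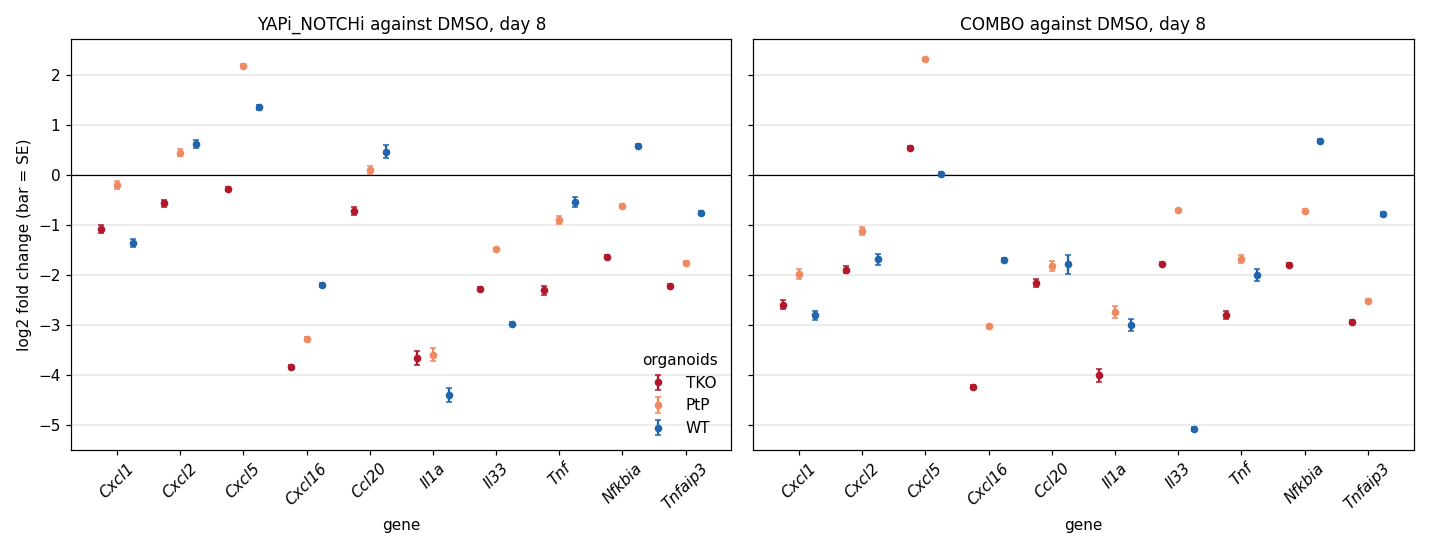
Log2 fold change of each gene in TKO, PtP and WT organoids at day 8, for YAPi_NOTCHi against DMSO on the left and COMBO against DMSO on the right, with SE bars. Nfkbia lies above 0 in WT and below 0 in TKO and PtP in both panels, and Il33 with COMBO ranges from -0.71 in PtP to -5.08 in WT.

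The wider pathway lists were counted by genotype too. Of 21 other response genes, YAPi_NOTCHi lowered 19 and raised 0 in TKO (median -1.69 beside 0.10 over all genes), lowered 17 and raised 0 in PtP (-0.90 beside 0.087), and lowered 8 and raised 12 in WT (0.36 beside 0.11). Over all genes, 40.6% were called lower and 45.7% higher in TKO, 40.6% and 44.9% in PtP, and 40.2% and 45.5% in WT. With COMBO, 20 fell and 1 rose in TKO (median -2.39), 18 fell and 2 rose in PtP (-1.05), and 11 fell and 7 rose in WT (-0.34), against 41% of all genes lower and 46.2% higher in TKO, 40.2% and 44.8% in PtP, and 40.8% and 44.9% in WT. Vcam1, an adhesion receptor for leukocytes, rose in WT to 13.1, 11.96 and 14.02 CPM with YAPi_NOTCHi, against 2.26, 2.50 and 2.08 CPM with DMSO. Of 28 signalling components, YAPi_NOTCHi lowered 26 and raised 1 in TKO (median -1.02), lowered 20 and raised 5 in PtP (-0.68), and lowered 12 and raised 13 in WT (0.13), the last close to the shares over all genes given above. Rela, which encodes the p65 subunit, had 46.7 against 176 CPM in TKO and 64.3 against 194 CPM in PtP, with YAPi_NOTCHi against DMSO. Il1r2 rose in every genotype with COMBO, to 302, 299.5 and 283 CPM in TKO, 1004, 979 and 1005 CPM in PtP and 486, 476 and 471 CPM in WT, against means of 1.12, 1.78 and 0.620 CPM with DMSO. Cxcl15 rose beside Cxcl5 in PtP, to 1331, 1256 and 1308 CPM with COMBO and 1014, 1006 and 984 CPM with YAPi_NOTCHi, against 59.6, 58.1 and 59.7 CPM with DMSO, and it rose in WT as well, to 286, 275 and 289 CPM with COMBO, where Cxcl5 did not pass the test.

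Marker levels shifted with treatment in this table too. The sum of 3 neuroendocrine markers was 827 to 894 CPM in TKO, 330.2 to 336 CPM in PtP and 221 to 243 CPM in WT organoids with COMBO, and 480.1 to 490.1, 117 to 126 and 99.99 to 105 CPM in the same order with YAPi_NOTCHi, against at most 0.463 CPM in any DMSO library, with Insm1 and Chga at 0 in WT. The sum of 6 epithelial markers was 3566 to 3656 CPM in TKO, 5666 to 5889 CPM in PtP and 6478 to 6696 CPM in WT with COMBO, against 9212 to 9257, 10012 to 10223 and 16876 to 17142 CPM with DMSO. Of 10 immune markers, 3 had values, and their sum was 3.16 to 3.85 CPM in TKO, 5.63 to 7.76 CPM in PtP and 7.08 to 8.27 CPM in WT with COMBO, against 26.7 to 28.4, 36.1 to 41.3 and 16.1 to 18.6 CPM with DMSO, where Itgam and Lyz2 were at 0 in WT. The 2 of 6 fibroblast markers with values, nearly all Dcn, moved in opposite directions by genotype: their sum was 19.5 to 22.1 CPM with COMBO and 39.9 to 42.3 CPM with YAPi_NOTCHi, against 178 to 188 CPM with DMSO, in TKO. It was 49.5 to 53.7 and 52.9 to 57.0 CPM, against 159.6 to 161 CPM, in PtP, and 179.5 to 186 and 344 to 348 CPM, against 5.78 to 6.23 CPM, in WT. The 2 of 4 endothelial markers with values did not pass 2.22 CPM in any library. The part of these shifts in the genotype differences was not tested.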

How the data were processed

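Expression was measured by polyA RNA sequencing in 69 libraries of mouse prostate organoids, 3 in each of 23 groups. The authors deposited estimated counts per gene in 3 tables, which need not be whole; per the submitters' processing notes the genome build was mm10, with aligner and counter not given in the sources used here. Counts were rounded to whole numbers, and lines with no gene name (at most 0.0114% of a library) were dropped. Every column was matched to a library by the library code in the sample's description. Each table was fitted on its own with edgeR 4.0.16 in R 4.3.3: genes kept by filterByExpr (minimum count 10 in a library of median size, in 3 libraries), TMM scaling, 1 coefficient per group, quasi-likelihood F-test, Benjamini-Hochberg adjustment over all genes kept (15733, 18483 and 18430), called at an adjusted p under 0.05. The procedure was also run on simulated counts in which few genes changed. That setting is unlike these tables, where many genes were called, so it does not test the scaling. Where a group had 0 counts, folds were bounded with 3 counts over its libraries. Intervals and floors cover counting error only. The alternatives were DESeq2 1.42.0, RLE scaling, no filter, a replicate block, only the groups compared, and leaving out each library. Genes named are the 10 members, up to 4 called genes per list and comparison with the largest absolute log2 fold change, and the 3 genes most like each member. A gene of 1 marker list is not reported here, and the sums of that list leave it out. The members and gene lists were chosen with earlier results of these data known. Matches of the kappa-B consensus were counted on both strands of RefSeq windows of GRCm38.p6.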

Additional observations from a re-analysis of the deposited data

Results flagged for a closer look

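For 31 pairings of a gene with a genotype contrast, the effect of treatment at day 8 differed between genotypes by edgeR's test of the difference itself, at an adjusted p under 0.05 and by at least 2-fold. The values are differences of log2 effects, treated against DMSO. For YAPi_NOTCHi, TKO minus WT gave Cxcl2 (-1.18), Cxcl5 (-1.62), Cxcl16 (-1.63), Ccl20 (-1.19), Tnf (-1.77), Nfkbia (-2.22), Tnfaip3 (-1.47), TKO minus PtP gave Cxcl2 (-1.01), Cxcl5 (-2.46), Tnf (-1.40), Nfkbia (-1.02), and PtP minus WT gave Cxcl1 (1.15), Cxcl16 (-1.07), Il33 (1.49), Nfkbia (-1.20). For COMBO, TKO minus WT gave Cxcl16 (-2.54), Il1a (-1.01), Il33 (3.31), Nfkbia (-2.47), Tnfaip3 (-2.16), TKO minus PtP gave Cxcl5 (-1.77), Cxcl16 (-1.21), Il1a (-1.26), Il33 (-1.06), Tnf (-1.12), Nfkbia (-1.08), and PtP minus WT gave Cxcl5 (2.29), Cxcl16 (-1.33), Il33 (4.37), Nfkbia (-1.39), Tnfaip3 (-1.74). Over all genes, the share called and at least 2-fold different was 29.2%, 12.3% and 17% for YAPi_NOTCHi and 30.9%, 15.6% and 17.1% for COMBO, in the same order. Nfkbia appears in all 6 contrasts, and the contrasts share DMSO libraries. The cause of these differences was not tested.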

How the results depend on the processing

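Each of the 41 comparisons was refitted under the alternatives, and each member's call and direction compared. They held in 410 of 410 member comparisons with no filter on low counts, 408 of 410 with a replicate block, 397 of 410 with RLE scaling, 395 of 410 with DESeq2, 368 of 378 with only the groups compared, and 2984 of 3060 when 1 library was left out. Counts of members called moved by over 1.5 times in 2 comparisons, both when only the groups compared were fitted, to 3 instead of 5 for NEPC-2 against NEPC-1 and to 4 instead of 8 for NEPC-3 against NEPC-1. Of the calls lost, Cxcl1 and Cxcl2 in both and Ccl20 in the second did not pass the filter on those 6 libraries, and Cxcl16 in the second no longer passed the test. Reversals of sign were limited to values that did not pass the test. With RLE scaling and DESeq2 they were Ccl20 in the ARi by NOTCHi interaction (-0.0190 and -0.0200) and in the COMBO effect of PtP minus WT (0.000503 and 0.00889). With 1 library left out, the values that changed sign ranged as follows: COMBO against ARi_NOTCHi, Cxcl1 -0.22 to 0.29, Cxcl2 -0.43 to 0.0411, Ccl20 -0.10 to 0.31; ARi by NOTCHi interaction, Cxcl2 -0.42 to 0.0494, Ccl20 -0.20 to 0.22, Tnfaip3 -0.11 to 0.00660; NEPC mean against COMBO at day 42, Il1a -1.29 to 3.32; NEPC-2 against NEPC-1, Il1a -1.29 to 1.19, Il33 -3.79 to 1.28. NEPC-3 against NEPC-1 gave Il1a -1.30 to 0.73, NEPC-3 against NEPC-2 Il1a -1.26 to 0.80, Il33 -4.39 to 2.50, TKO against PtP with DMSO Nfkbia -0.0451 to 0.00170, and COMBO in WT against DMSO Cxcl5 -0.00370 to 0.0817 and against YAPi_NOTCHi Tnfaip3 -0.0512 to 0.0263. The YAPi_NOTCHi effect of TKO minus PtP gave Il1a -0.19 to 0.11, and the COMBO effect of PtP minus WT Ccl20 -0.18 to 0.20. The cause of these changes was not tested. Calls also depended on single libraries for the Cxcl1 and Il1a effects of YAPi_NOTCHi in TKO minus WT, the Il1a and Ccl20 effects of YAPi_NOTCHi in PtP minus WT, the Ccl20 effect of COMBO in TKO minus PtP, and Cxcl16 in NEPC-3 against NEPC-1 (edgeR adjusted p = 0.111 without NEPC-1 replicate 3). The labels give replicate numbers in all groups, with nothing to say that they mark a shared culture or day. The median correlation of the deviations of same-numbered libraries was -0.147, -0.00134 and 0.0155 in the TKOM, PRAD and NEPC, and genotype tables, and 1 of 6, 8 of 36 and 17 of 27 libraries correlated best with their own number. In the genotype table this is a hint of pairing that the design does not state, with pairs from -0.140 to 0.165. The library codes of that table also number the libraries of each replicate consecutively across all groups. Nothing says what such a set shares, so the numbers were not taken as pairs. The replicate block turned 2 further values into calls, Il1a in TKO against PtP with DMSO (-0.23, edgeR adjusted p = 0.0314) and Tnfaip3 in the ARi by YAPi interaction (0.21, edgeR adjusted p = 0.0460). In the NEPC mean against COMBO at day 42, Cxcl5 had an adjusted p of 1 with edgeR and 0.00121 with DESeq2, with 0 counts at day 42. Depth limits what can be said of genes at 0 counts in COMBO at day 42 and in the NEPC organoids, which allow a level of up to 3 counts over the group.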
